A study of Homo sapiens with 4 samples.

Results

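The 10 genes described here encode carriers that move amino acids across the plasma membrane, and they were chosen by name from the 20348 genes of the deposited count table. They are SLC1A4, SLC1A5, SLC38A1, SLC38A2, SLC3A2, SLC7A5, SLC7A6, SLC7A11, SLC7A1 and SLC43A1. Each was found once by its Ensembl identifier, and all 10 passed a filter on the mean level (1 CPM, the count of a gene scaled to a common library total) in both cell lines. RNA was sequenced from K562, a human line from chronic myeloid leukemia with erythroid features, and from THP-1, a human line from acute monocytic leukemia. Each line was kept for 72 h in 100 nM periplocin, a cardiac glycoside from Cortex periplocae, or in DMSO, the solvent control. The library names call the controls DMSO, while their titles call them blank. There was 1 library per condition, which the methods describe as a single biological replicate, so the differences below have no replicate check. The intervals given in brackets are 95% and cover counting error only. A gene is said to have risen or fallen where its scaled ratio was at least 2-fold.

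The carriers fall into classes by how they are driven. SLC38A1 and SLC38A2 bring in small neutral amino acids together with sodium, and SLC1A4 and SLC1A5 swap neutral amino acids across the membrane and need sodium to do so. SLC3A2 (CD98) is a heavy chain that transports nothing itself and takes light chains to the cell surface. Its light chains exchange amino acids, SLC7A5 (LAT1) importing leucine and other large neutral ones, SLC7A6 exchanging cationic for neutral ones, and SLC7A11 (xCT) importing cystine for glutamate. SLC7A1 carries arginine and lysine and SLC43A1 large neutral amino acids, without sodium and without a heavy chain. Cardiac glycosides bind the sodium pump, which maintains the sodium gradient that the sodium-dependent carriers use.

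On GRCh38, as annotated in GENCODE 29, all 10 are protein-coding genes, and the table gives 1 value per gene and not per transcript. The sodium-dependent exchangers are SLC1A4 (ENSG00000115902) at chr2:64988477-65023865 on the plus strand and SLC1A5 (ENSG00000105281) at chr19:46774883-46788594 on the minus strand. The net carriers are SLC38A1 (ENSG00000111371) at chr12:46183063-46270017 on the minus strand and SLC38A2 (ENSG00000134294) at chr12:46358189-46372867 on the minus strand. The heavy chain is SLC3A2 (ENSG00000168003) at chr11:62856102-62888875 on the plus strand. Its light chains are SLC7A5 (ENSG00000103257) at chr16:87830023-87869488 on the minus strand, SLC7A6 (ENSG00000103064) at chr16:68264516-68301823 on the plus strand and SLC7A11 (ENSG00000151012) at chr4:138164097-138242349 on the minus strand. The remaining carriers are SLC7A1 (ENSG00000139514) at chr13:29509410-29595688 on the minus strand and SLC43A1 (ENSG00000149150) at chr11:57484534-57515786 on the minus strand.

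Library totals lay between 16381149 and 20622694 counts, and mitochondrially encoded genes took between 2.07% and 5.62% of them. The erythroid factors GATA1, KLF1 and TAL1 lay between 87.2 and 477 CPM in K562 and at or below 0.485 CPM in THP-1. CSF1R and CEBPA lay between 129 and 315 CPM in THP-1 and at or below 1.40 CPM in K562. Of the THP-1 markers, MPO was near absent there, at 2.09 CPM in DMSO and 0.79 CPM in periplocin, and LYZ was also read in K562, at 45.9 and 64.1 CPM. Beside the transporter results, all 10 genes of an erythroid maturation list rose in K562 (median log2 ratio 3.23), against 8.84% of 11862 genes. All 7 measured genes of a macrophage maturation list of 8 rose in THP-1 (median 4.28), against 8.05% of 12341 genes. Both lists were chosen with earlier results of these data known, so these counts are no test. Neither list kept to its line. Of 4 measured macrophage genes in K562, 2 rose and 1 fell, and AQP1, the 1 measured erythroid gene in THP-1, rose there. The part of these changes in the transporter values was not tested, and in bulk RNA fewer cells of a type and less RNA per cell cannot be told apart.

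Promoter sequence is shown because several of these carriers are known targets of ATF4, the transcription factor that cells use when amino acids run short and that binds TGATGNAA with a C/EBP partner. RefSeq promoters on GRCh38.p14, from 250 bases before to 50 after a start, were found for 9 of the 10 genes, in 16 windows, and SLC7A11 had no entry. Searched on both strands, TGATGNAA stood in 5 of the 16 windows, each of a different gene, and in 3.62% of all 35116 windows. The 30 bases around each match are printed on the gene's own strand, with the match in capitals.
SLC1A4: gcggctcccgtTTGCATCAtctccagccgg
SLC3A2: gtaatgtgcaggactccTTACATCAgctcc
SLC38A1: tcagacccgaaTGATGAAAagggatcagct
SLC7A1: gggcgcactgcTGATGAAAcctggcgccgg
SLC1A5: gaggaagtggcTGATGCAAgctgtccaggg
These lie at chr2:64989381-64989410 on the plus strand, chr11:62881719-62881748 on the plus strand, chr12:46266502-46266531 on the minus strand, chr13:29595663-29595692 on the minus strand and chr19:46784893-46784922 on the minus strand. In SLC1A4 and SLC3A2 the match reads on the strand opposite to the gene. TGACNNNGC, the core of the antioxidant response element, stood in 5 of the 16 windows and 13.3% of all windows. CACGTG, the E-box, which reads alike on both strands, stood in 3 of the 16 and 7.26% of all. A match is a string of letters and no evidence of binding, and no match falls on another of the motifs in these windows.

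In the DMSO controls, K562 held more transporter transcript than THP-1. The 10 genes summed to 4663 CPM in K562 DMSO and 2242 CPM in THP-1 DMSO. None of the 10 was 2-fold higher in THP-1, against 22.8% of 12845 genes, and 6 were 2-fold lower, against 21.2%. The gap was widest for SLC7A11, with 3282 counts in K562 DMSO and 494 in THP-1 DMSO, 7.69-fold lower in THP-1. SLC3A2 was 4.07-fold lower there and SLC7A5 3.51-fold lower. SLC1A5, SLC43A1 and SLC7A6 were 2.81, 2.74 and 2.03-fold lower. SLC38A2, SLC1A4 and SLC7A1 lay within 1.11-fold of each other in the 2 lines, with log2 ratios of -0.11, 0.15 and 0.13.

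**Figure D1:**
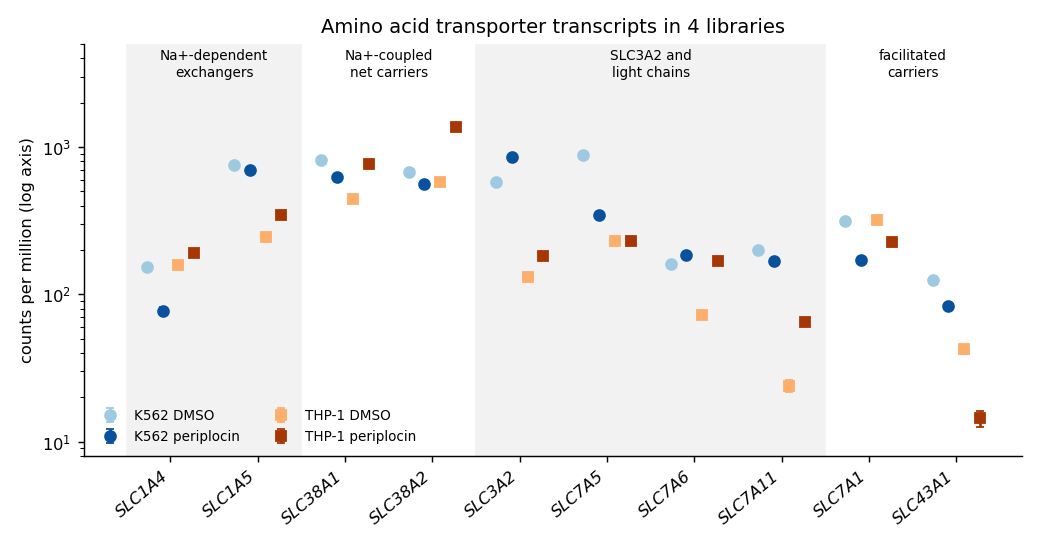
Level in CPM of the 10 transporters (log axis) in each of the 4 libraries, circles for K562 and squares for THP-1, light for DMSO and dark for periplocin, with 95% Poisson intervals that are mostly smaller than the symbols. THP-1 DMSO lies below K562 DMSO for SLC3A2 and all 3 light chains, and SLC38A2 in THP-1 periplocin is the highest point, at 1377 CPM.

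Per length, as counts per kilobase of annotated exons scaled to the same sum over genes in each library, SLC1A5 had the highest level in both K562 libraries, at 882 in DMSO and 891 in periplocin. SLC38A2 had the highest level in both THP-1 libraries, at 349 and 889. The lowest levels were those of SLC7A11 in K562 DMSO (80.8) and THP-1 DMSO (9.92), SLC1A4 in K562 periplocin (47.4) and SLC43A1 in THP-1 periplocin (17.4). Neighbours in the order did not differ beyond counting error for SLC1A4, SLC7A6 and SLC7A11 in K562 DMSO, and for SLC7A6, SLC43A1 and SLC7A1 in K562 periplocin. With the longest coding transcript as the length, 17 of the 40 places in the 4 orders changed. SLC3A2 then came first in K562 periplocin, at 1099.7 against 697 for SLC1A5, and nearly level with SLC1A5 in K562 DMSO, at 699.8 against 703, while SLC38A2 stayed first in THP-1.

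With periplocin most of the transporters lay lower in K562 and higher in THP-1, and 6 ratios in all passed 2-fold. In K562, 8 of the 10 log2 ratios of periplocin over DMSO lay below 0 and the median was -0.34, beside -0.01 over all genes. None rose, against 8.84% of 11862 genes, and 2 fell, SLC7A5 and SLC1A4, against 11.6%. In THP-1, 8 of the 10 lay above 0 and the median was 0.49, beside -0.02 over all genes. There 3 rose, SLC7A11, SLC38A2 and SLC7A6, against 8.05% of 12341 genes, and 1 fell, SLC43A1, against 10.5%. The summed level of the 10 genes went from 4663 to 3771 CPM in K562, while THP-1 went from 2242 to 3559 CPM. SLC38A2 alone went from 577 to 1377 CPM in THP-1. The sums of the treated libraries lay closer together than those of the controls, but the single genes did not as a set. Their THP-1 over K562 log2 ratios had a standard deviation of 1.01 in DMSO and 1.34 in periplocin. The gap between the lines narrowed for SLC1A5, SLC38A1, SLC7A5, SLC7A6 and SLC7A11. It widened for SLC1A4, SLC38A2, SLC3A2, SLC7A1 and SLC43A1. Ratios of opposite sign in the lines were found for 6 of the 10 genes and 38.3% of 10779 genes. All 6 were lower in K562 and higher in THP-1, as were 18.9% of the 10779, though the ratio of SLC7A5 in THP-1 was 0.01 with an interval that spanned 0.

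**Figure D2:**
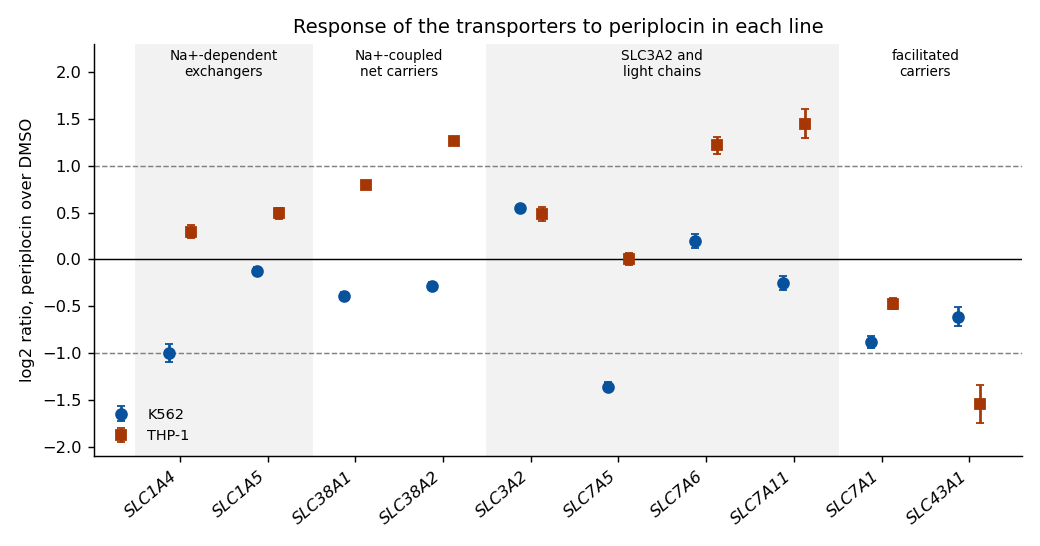
Log2 ratio of periplocin over DMSO for each transporter, with 95% exact binomial intervals for counting error, K562 as circles and THP-1 as squares. Dashed lines mark 2-fold. The 4 sodium-dependent carriers lie below 0 in K562 and above 0 in THP-1, SLC3A2 lies at 0.54 and 0.49, and SLC7A1 and SLC43A1 lie below 0 in both lines.

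SLC38A1 and SLC38A2, the sodium-coupled net carriers among these transporters, differed in sign between the lines. SLC38A2, whose transcript is known to increase when amino acids are scarce, had 11078 counts in DMSO and 9249 with periplocin in K562, and 11893 and 24400 in THP-1. The 3 other libraries lay together and THP-1 periplocin stood apart. The log2 ratio was -0.29 [-0.33 to -0.25] in K562, and in THP-1 the gene rose, with a log2 ratio of 1.27 [1.24 to 1.3]. SLC38A1 had 13425, 10433, 9163 and 13504 counts in the same order. Its K562 DMSO and THP-1 periplocin counts were nearly alike, and the log2 ratios of -0.39 [-0.43 to -0.35] and 0.79 [0.75 to 0.83] both stayed inside 2-fold.

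SLC1A5 and SLC1A4, the sodium-dependent exchangers among these transporters, had the same pair of signs. SLC1A5 (ASCT2), a main route of glutamine entry, had 12366 counts in DMSO and 11579 with periplocin in K562, and 5089 and 6091 in THP-1. K562 remained well above THP-1 in either condition, and the log2 ratios were -0.12 [-0.16 to -0.08] and 0.49 [0.44 to 0.54]. SLC1A4 (ASCT1), which prefers alanine, serine and cysteine, had 2524, 1284, 3238 and 3390 counts. K562 periplocin was the low library. SLC1A4 fell in K562, with a log2 ratio of -1.001 [-1.10 to -0.90], on the 2-fold line, so that its call was lost when libraries were scaled by total counts or by DESeq2's size factors. In THP-1 its log2 ratio was 0.30 [0.23 to 0.37]. Summed, the 4 sodium-dependent genes went from 2405 to 1965 CPM in K562, while THP-1 went from 1425 to 2674 CPM.

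The heavy chain SLC3A2 was higher in periplocin in both lines, by nearly the same ratio and inside 2-fold. It had 9488 counts in DMSO and 14091 with periplocin in K562, and 2696 and 3221 in THP-1. The log2 ratios were 0.54 [0.51 to 0.58] and 0.49 [0.41 to 0.56], and their difference, THP-1 minus K562, was -0.06 [-0.14 to 0.03]. It was the only one of the 10 genes for which the interval of that difference held 0.

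The light chains differed from the heavy chain and among themselves. SLC7A5 had 14377 counts in DMSO and 5712 with periplocin in K562, and 4736 and 4052 in THP-1. K562 DMSO was the high library, at 878 CPM, K562 periplocin followed at 345 CPM, and the THP-1 libraries lay lowest, at 230 and 229 CPM. SLC7A5 fell in K562, with a log2 ratio of -1.36 [-1.40 to -1.31], while its THP-1 log2 ratio was 0.01 [-0.06 to 0.07]. That THP-1 value turned to -0.01 with total counts and -0.03 with mitochondrially encoded genes left out of the totals.

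SLC7A11, which supplies cystine for glutathione, had 3282, 2804, 494 and 1147 counts in the same order of libraries. THP-1 held less of it than K562 in both conditions. In K562 the log2 ratio was -0.25 [-0.33 to -0.18], and in THP-1 SLC7A11 rose, with a log2 ratio of 1.45 [1.29 to 1.60], the largest rise of the 10. The THP-1 gap to K562 was 7.69-fold in DMSO and 2.38-fold in periplocin. Antisense transcripts on the opposite strand overlap 865 exonic bases of SLC7A11, 780 of SLC1A5 and 271 of SLC7A5, and their reads cannot be told apart from those of the carriers without strand.

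SLC7A6 had 2632 counts in DMSO and 3075 with periplocin in K562, and 1503 and 2985 in THP-1. THP-1 DMSO was the low library. The log2 ratio was 0.20 [0.12 to 0.27] in K562, and in THP-1 the gene rose, with a log2 ratio of 1.22 [1.13 to 1.31]. SLC7A6 shares 3371 exonic bases with SLC7A6OS on the opposite strand. The sources used here do not state that the library or the counting used strand, and the deposited counts of the pair add up to whole numbers in every library, 3503, 4783, 2465 and 4166. Added together, the pair had log2 ratios of 0.42 [0.36 to 0.49] in K562 and 0.99 [0.92 to 1.06] in THP-1. The THP-1 ratio of the pair was just short of 2-fold, with an interval that held it.

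Set against the heavy chain, the transcripts of the 3 light chains described here all went lower with periplocin in K562. In THP-1 they went in different directions. Per length, SLC7A5 stood at 1.65 per SLC3A2 in DMSO and 0.442 with periplocin in K562, and at 1.92 and 1.37 in THP-1, a comparison chosen after these values were seen. The ratio was 3.74-fold lower with periplocin in K562 (3.59 to 3.89) and 1.40-fold lower in THP-1 (1.31 to 1.49). SLC7A11 per SLC3A2 was 1.74-fold lower in K562 and 1.94-fold higher in THP-1, and SLC7A6 per SLC3A2 was 1.27-fold lower and 1.66-fold higher. The 3 light chains together went from 2.03 to 0.698 per SLC3A2 in K562, while THP-1 went from 2.40 to 2.20. With the longest coding transcript as the length the level of SLC7A5 per SLC3A2 in K562 DMSO was 0.742, so the levels depend on the transcript model. The fold for a single light chain over SLC3A2 does not, while that of the sum of the 3 does. With that length the sum went from 0.920 to 0.321 in K562.

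SLC7A1 and SLC43A1, which use neither sodium nor SLC3A2, were lower with periplocin in both lines. SLC7A1 (CAT-1) had 5157 counts in DMSO and 2852 with periplocin in K562, and 6543 and 4022 in THP-1. The treated library was the lower in each line, with log2 ratios of -0.88 [-0.95 to -0.81] and -0.47 [-0.53 to -0.41], both inside 2-fold. SLC43A1 (LAT3) had 2058, 1372, 871 and 255 counts. THP-1 periplocin held the least of it. The log2 ratio was -0.61 [-0.71 to -0.51] in K562, and in THP-1 SLC43A1 fell, with a log2 ratio of -1.54 [-1.75 to -1.34].

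**Figure D3:**
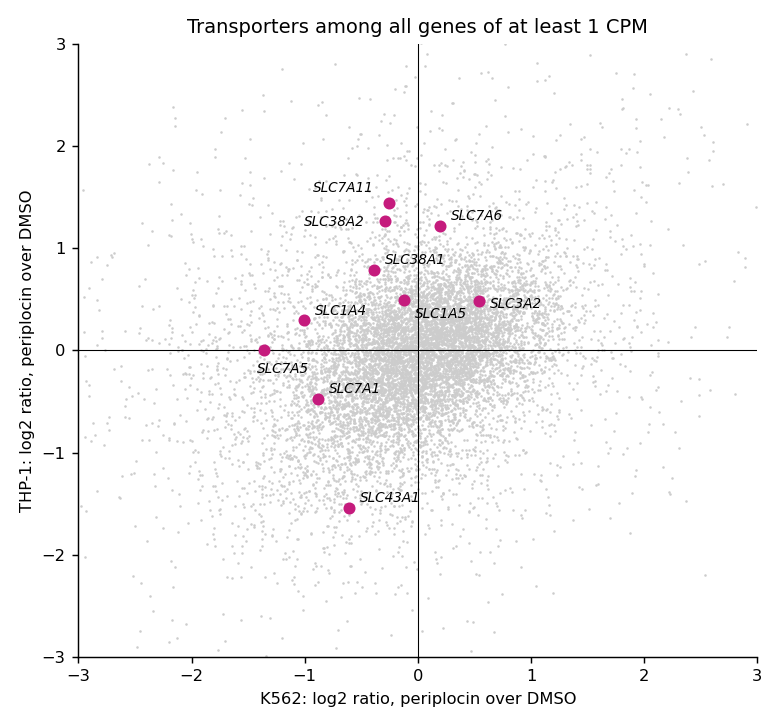
Log2 ratio of periplocin over DMSO in K562 (x axis) and THP-1 (y axis) for 10779 genes with at least 1 CPM in both lines (grey) and the 10 transporters (coloured), with 157 genes beyond the axis limits not drawn. In the upper left part lie SLC1A4, SLC1A5, SLC38A1, SLC38A2 and SLC7A11, with SLC7A5 on its lower edge.

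A fit over the 4 libraries with line and treatment as terms asked which genes moved alike in both lines. By edgeR's quasi-likelihood test with Benjamini-Hochberg adjustment, 0 of 13584 genes passed an adjusted p of 0.05, a share of 0%, and so 0 of the 10 transporters did. At an unadjusted p under 0.05 there were 1535 genes and 1 transporter, SLC43A1, lower in both lines (log2 change -1.06, with an edgeR adjusted p of 0.3791). DESeq2 called 125 genes and none of the 10. The fit had 1 residual degree of freedom.

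Of the other plasma membrane amino acid transporters, a list of 21 genes, 7 were measured in K562, where 2 rose and 2 fell, and 9 in THP-1, where 3 rose and 3 fell. The shares over all genes that stand beside these and the list counts that follow are 8.84% higher and 11.6% lower in K562, and 8.05% and 10.5% in THP-1. SLC6A6, the taurine carrier, rose in each line, in K562 from 1729 to 6693 counts and in THP-1 from 929 to 3577. SLC7A8 (LAT2), another light chain of SLC3A2, rose in K562 from 58 to 233 counts. Its log2 ratio there was 1.98, above the 0.54 of SLC3A2, unlike the light chains described above. In THP-1 SLC38A5 fell from 397 to 82 counts and SLC43A2 (LAT4) rose from 282 to 855. By sign, 5 of the 7 measured in K562 lay above 0, with a median log2 ratio of 0.31. In THP-1, 6 of the 9 lay below 0, with a median of -0.22. Most of the transporters described above had the reverse signs. SLC38A5, of the same family as SLC38A1 and SLC38A2, had log2 ratios of 0.17 in K562 and -2.05 in THP-1. Among 8 measured lysosomal carriers, SLC36A1 rose in K562, from 702 to 1780 counts, and none passed 2-fold in THP-1.

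The amino acid response genes outside the transporters, a list of 26 ATF4 and related genes, all of them measured, mostly fell in K562. There 19 fell, against 11.6% of all genes, and none rose, with a median log2 ratio of -1.44, beside -0.34 for the 10 transporters. INHBE, a hormone subunit gene, fell from 2589 to 121 counts. SHMT2, the mitochondrial serine hydroxymethyltransferase, fell from 12203 to 2348 counts. TRIB3, a pseudokinase that feeds back on ATF4, fell from 6499 to 1465 counts. ATF4 itself and ASNS, named after their values were seen, were not lower there, with log2 ratios of 0.24 and 0.24. In THP-1, 3 of the 26 rose and 2 fell, with a median of 0.25, and the largest changes among those with a mean of at least 5 CPM were those of STC2 (75 to 310 counts), NUPR1 (100 to 412) and PYCR1 (821 to 253). Of the 5 transporters with TGATGNAA in a printed window, SLC1A4, SLC7A1, SLC38A1 and SLC1A5 had K562 log2 ratios below 0 (-1.001, -0.88, -0.39 and -0.12), and SLC3A2 had one above 0 (0.54). Of the searched transporters without it, SLC7A5, SLC43A1 and SLC38A2 also lay below 0 (-1.36, -0.61 and -0.29) and SLC7A6 above 0 (0.20). A link between the motif and the ratios was not tested.

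**Figure D4:**
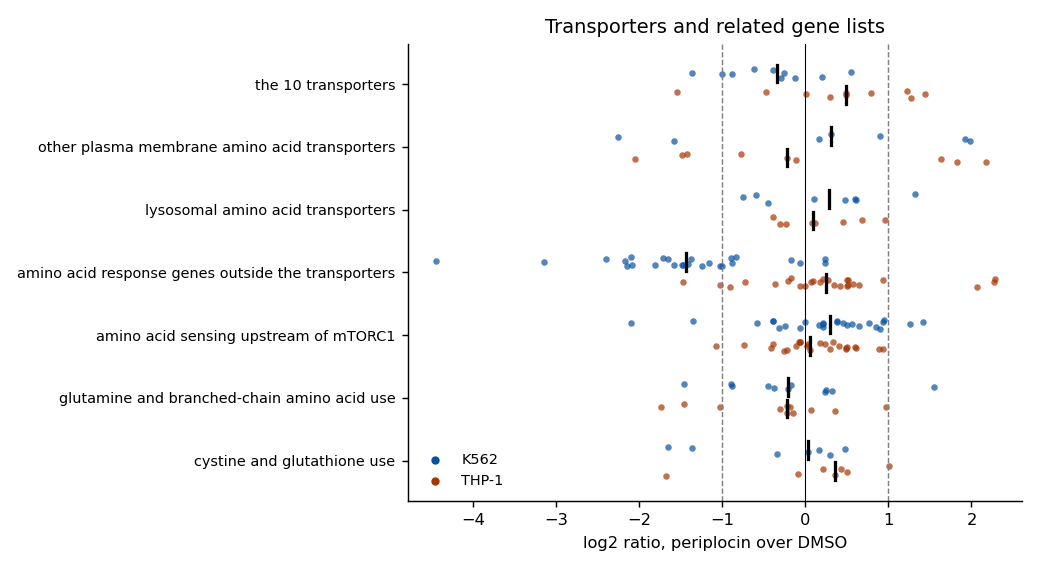
Log2 ratio of periplocin over DMSO for the measured genes of the 10 transporters and 6 related lists, K562 in blue and THP-1 in orange, with black bars at medians and dashed lines at 2-fold. The amino acid response list has its K562 median at -1.44 and its THP-1 median at 0.25, while the sensing list has 0.30 and 0.06.

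Of the genes that use or sense the imported amino acids, most stayed inside 2-fold. SESN2, CHAC1, GPT2 and ASNS also belong to the amino acid response list, so a call of any of them is counted in both. Of 26 genes for amino acid sensing upstream of mTORC1, 2 rose in K562, TSC1 (1061 to 2879 counts) and FLCN (700 to 1706), and 2 fell, among them SESN2 (6525 to 1556), a leucine sensor. In THP-1, 1 of 25 measured fell, NPRL3. For glutamine and branched-chain amino acid use, BCKDHA rose and GOT1 fell among 11 measured genes in K562. In THP-1, 3 of 11 measured fell, BCAT2, BCKDHB and GPT2, and none rose. In the list of 7 genes for cystine and glutathione use, GSS, which makes glutathione, fell in each line, in K562 from 1417 to 560 counts and in THP-1 from 853 to 228. CHAC1 also fell in K562, and GCLC reached 2.01-fold in THP-1, a call lost with total counts and with mitochondrially encoded genes left out of the totals. Of 4 sodium pump subunits, ATP1B3 rose in each line, in K562 from 1522 to 5424 counts and in THP-1 from 1925 to 3486, while ATP1B1 rose in THP-1 from 206 to 615.

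By the shape of their levels over the 4 libraries, the light chains were not the nearest genes to SLC3A2. Among 8632 other genes with at least 5 CPM in every library, ordered by root mean square distance on the log2 scale, SLC7A11 stood at place 344, SLC7A6 at 2058 and SLC7A5 at 2130. Within the 10 genes the nearest pair was SLC38A1 and SLC7A6, at 0.31. With 4 points these distances only describe the libraries.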

How the data were processed

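Poly-A RNA libraries from K562 and THP-1 cells, 1 per condition, were analysed. The authors deposited 1 table of expected counts, with a column for each library and no normalization, and 87.4% to 88.3% of the values in a column, zeros included, were exactly whole. The submitters' processing notes name HISAT2, StringTie 1.3.1 and hg38 without their roles. The strandedness of the libraries and the counting program are not given in the sources used here. Ambiguous reads appear divided between overlapping genes, so the true error exceeds the counting error given. Of 20348 genes, 20118 were found by identifier in GENCODE 29, which gave exon lengths, and 0 columns were left unused.

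Expected counts were rounded and scaled by TMM factors (edgeR 4.0.16, R 4.3.3) over the 2 libraries of a line, or over all 4 between lines. Comparisons took genes whose mean over the pair reached 1 CPM, called at 2-fold. Intervals of ratios are exact conditional binomial (Clopper-Pearson) at 95%. The fit over 4 libraries used edgeR's quasi-likelihood test for genes that reached 10 counts in 2 or more libraries, with DESeq2 1.42.0 as the alternative. Scripts were tested on simulated data. Python 3.11.15 and scipy 1.17.1 were used. Alternatives were other scalings, folds, filters, call rules, added counts and transcript lengths. The transporters and lists were chosen with earlier results of these data known. Named from each list are up to 3 genes with the largest change past 2-fold in each line at a mean of 5 CPM or more. The other genes named were chosen after their values were seen, as was the addition of SLC7A6OS to SLC7A6. The genes nearest to SLC3A2 by level are not reported here.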

Additional observations from a re-analysis of the deposited data

Results flagged for a closer look

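For 5 transporters the K562 pair of libraries gave a lower level with periplocin and the THP-1 pair a higher one, with counting intervals that held no 0 in either line. By sign alone, 18.9% of 10779 genes were lower in K562 and higher in THP-1, and the share that also had such intervals was not computed. As each condition had 1 library, the differences of the 5 transporters were not tested. The log2 ratio of periplocin over DMSO in THP-1 minus that in K562 was 1.3 for SLC1A4, 0.61 for SLC1A5, 1.18 for SLC38A1, 1.55 for SLC38A2 and 1.70 for SLC7A11.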

How the results depend on the processing

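The median log2 ratio of the transporters kept its sign in both lines under all scalings and with 2 counts added. In K562, 2 transporters passed 2-fold, 1 did with total counts or with DESeq2's size factors (SLC1A4 lay on the threshold), 4 passed 1.5-fold and 0 passed 3-fold. In THP-1, 4 passed 2-fold and 0 passed 3-fold. The THP-1 log2 ratio of SLC7A5, 0.0053, became -0.0063 with total counts and -0.0262 without mitochondrially encoded genes in the totals. The order by level per length changed in 17 of 40 places with the longest coding transcript. Of the 19 amino acid response genes that fell in K562, 18 and 17 were counted with total counts and DESeq2's size factors. Over all genes, the K562 counts of 1049 higher and 1372 lower became 2255 and 2617 at 1.5-fold, 423 and 596 at 3-fold, 2643 and 2669 without the filter, and 744 and 914 at 5 CPM. The THP-1 counts of 994 and 1296 became 2126 and 2621, 451 and 466, 2305 and 2500, and 634 and 847. The fit over 4 libraries called 0 transporters with every tool, scaling and filter run, and over all genes 125 with DESeq2, 0 with edgeR and 1 with edgeR without the filter. That fit has line as a term and so is paired by line. Within a line each condition has 1 library, and no replicate could be left out.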
